A study of Mus musculus with 2 samples.

Results

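The Hox genes are the homeobox genes of the 4 clusters HoxA, HoxB, HoxC and HoxD, and they were taken here as every protein-coding gene whose symbol is Hox, a cluster letter from a to d and a paralog number from 1 to 13. The rule gave 39 genes of the 55536 annotated, and no measured value was used to choose them. Levels came from total RNA-seq of gastrocnemius, the large calf muscle of the lower hindlimb, from female mice aged 4 days. The mice were B6CASTF1/J, the F1 hybrid of C57BL/6J and CAST/EiJ, with no treatment or engineered allele given in the labels. There was 1 group of 2 libraries, biological replicates 1 and 2, made from 300 ng of RNA each with ERCC spike-ins. The labels number the animals separately but give both the same donor record, so whether they are littermates, or even samples of 1 animal, is not known from these sources. No forelimb muscle, other tissue or other age was measured, so the data describe levels within this muscle and hold no contrast of limbs.

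Hox proteins are transcription factors that give cells an address along the body axis and, in the limb, from the hip or shoulder to the digits. The genes of a cluster lie in the order of their paralog numbers, which count equivalent genes across clusters, and in the embryo they are switched on in that order: low numbers early and towards the head, high numbers late and towards the tail and the limb tip. In the mouse hindlimb, paralogs 10 are known for the upper leg, paralogs 11 for the lower leg, where the gastrocnemius lies, and paralogs 13 for the foot. Connective tissue and muscle stem cells of adult limbs are known to keep part of this code.

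The 3 paralogs numbered 10 took the largest share of the Hox signal, and part of their homeobox is compared here. The stretches below are 48 coding bases of exon 2 of 2 around the part that encodes the recognition helix, which contacts DNA. They are read 5′ to 3′ along the gene from the GENCODE M21 transcripts (mm10), and capitals mark positions at which the 3 genes are not all the same.
Hoxa10, chr6:52232557-52232604, minus strand: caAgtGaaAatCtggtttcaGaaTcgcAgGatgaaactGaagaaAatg
Hoxc10, chr15:102970977-102971024, plus strand: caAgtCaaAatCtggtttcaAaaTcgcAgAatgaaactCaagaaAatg
Hoxd10, chr2:74694270-74694317, plus strand: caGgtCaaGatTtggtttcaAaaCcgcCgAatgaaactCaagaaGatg
Hoxa10 and Hoxc10 differed at 4 of the 48 bases, Hoxc10 and Hoxd10 at 6, and Hoxa10 and Hoxd10 at 10. No stretch of 100 bases was shared between transcripts of these 3 genes. No Hox gene of another number was aligned, so whether the likeness is particular to paralogs 10 was not tested.

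Of the 39 Hox genes, 19 were detected, meaning 1 TPM or more in both libraries. TPM is each gene's share of all transcripts after counts are divided by length, so it can be compared between genes. This share of 48.7% lay near the background, since 55.0% of the 21901 genes with a protein-coding transcript passed the same rule. The detected Hox genes were low: their median was 3.28 TPM, against 9.92 TPM for all detected coding genes. The 39 genes summed to 98.1 TPM in replicate 1 and 96.7 TPM in replicate 2, from 5188 and 5729 expected counts. In a piece of whole muscle, fewer cells of a type and less RNA per cell cannot be told apart. The Hox RNA was concentrated in few genes: Hoxc10, Hoxd8 and Hoxa10 held 42.9% ± 3.53 of the summed TPM, and the 10 highest genes held 75.2% ± 4.73 (SD, n = 2 libraries here and throughout).

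**Figure D1:**
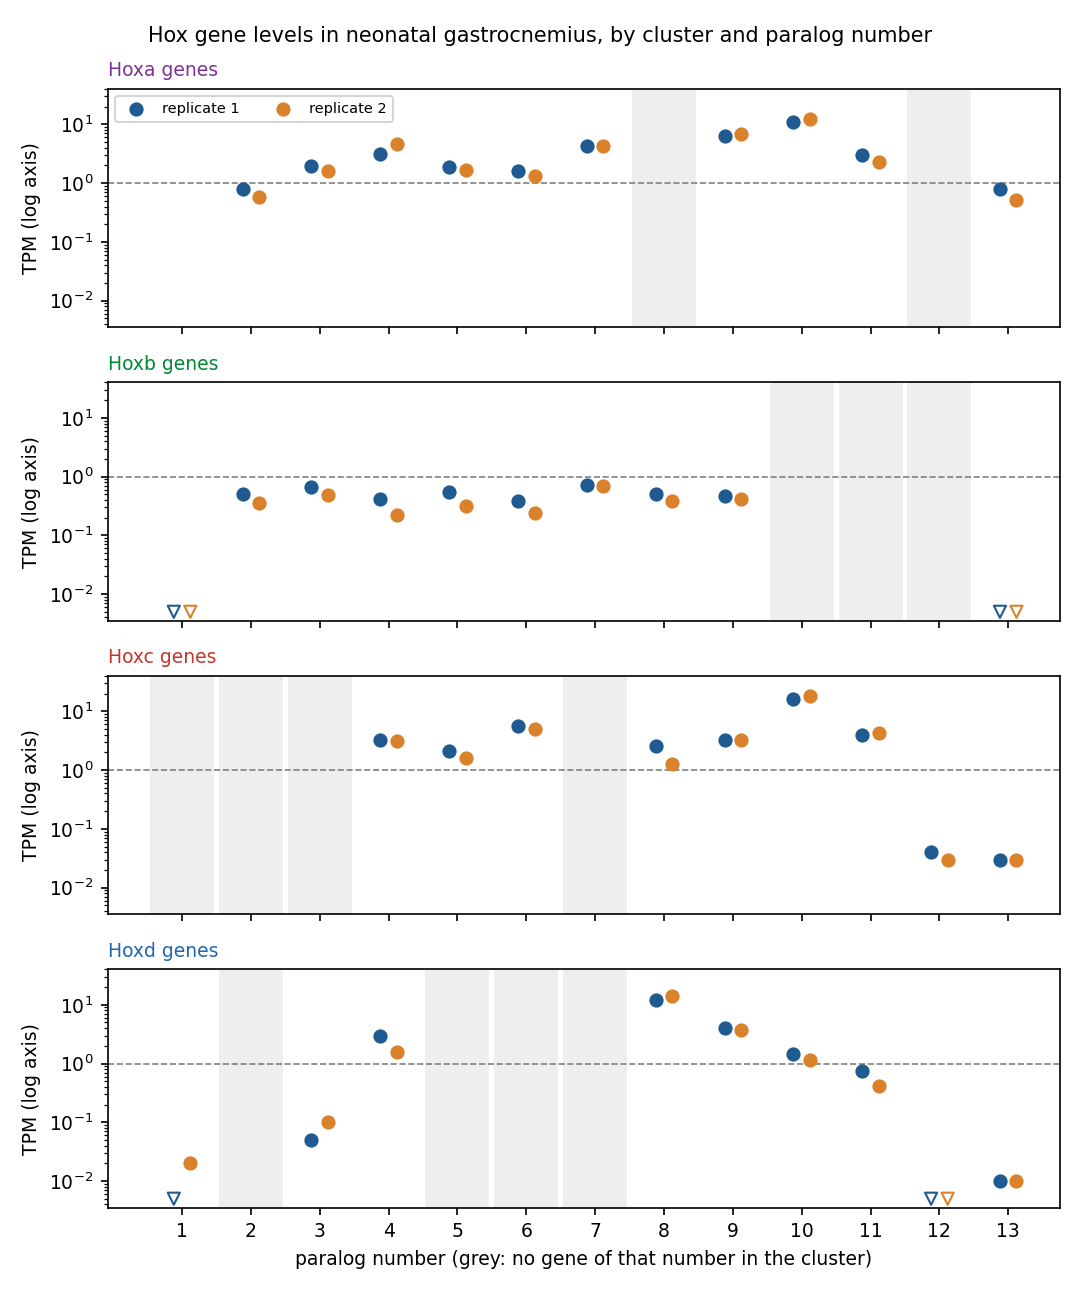
TPM of each Hox gene in replicate 1 (blue) and replicate 2 (orange) on a log axis, by paralog number within each cluster. The dashed line is 1 TPM, open triangles at the lower edge are genes listed at 0, grey columns mark numbers that a cluster lacks, and a blank position is not reported. HoxA, HoxC and HoxD genes peak at numbers 10, 10 and 8, and every HoxB gene lies under the line.

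By paralog number, the signal lay mostly in the central and posterior numbers, and in the gene tables every gene beyond number 11 was under 1 TPM. Numbers 9 to 13, the posterior class, held 53.8% ± 1.67 of Hox TPM with 8 of 16 genes detected. Numbers 4 to 8, the central class, held 42.3% ± 1.14 with 10 of 15 detected. Numbers 1 to 3, the anterior class, held 3.84% ± 0.534 with 1 of 8 detected. With the highest member of each cluster left out, the posterior share was 43.2% and the central share 50.0%. The genes left out were picked by their own TPM: Hoxc10 and Hoxa10 of the posterior class, Hoxd8 and Hoxb7 of the central class. That choice largely sets the result in advance, so it is no test of the class order.

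Paralogs 10 were the highest group, at 29.4% of Hox TPM in replicate 1 and 32.3% in replicate 2. Hoxc10, which in mouse embryos is active in the hindlimb bud and in lumbar motor neurons, was the highest Hox gene in the gene tables, at 16.2 TPM in replicate 1 and 17.9 TPM in replicate 2, from 823 and 1029 counts. In a separate deposited quantification it had 26.8 and 28.4 TPM and came after Hoxd8, which had 35.8 and 31.5 TPM. By mean TPM in the gene tables, Hoxc10 exceeded 68.5% of all detected coding genes. Hoxa10, known for patterning of the upper leg and the lumbar spine, had 11.2 and 12.2 TPM (519 and 682 counts). Hoxd10, which acts with the other paralogs in the hindlimb and its innervation, had only 1.46 and 1.17 TPM (70 and 64 counts) and was the lowest detected Hox gene. The 3 copies were thus far apart, with Hoxc10 holding 56.8% ± 0.753 of the group, and their values did not overlap. Without Hoxc10, Hoxa10 and the highest HoxB and HoxD genes, only Hoxd10 was left of the group, with 2.39% of what remained. Leaving out the group's higher members fixes this fall in advance, so it describes Hoxd10 and not the group.

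Paralogs 11 pattern the lower leg and forearm in mice, and as a group they were lower than paralogs 10 in both libraries. Hoxc11, which is active in the hindlimb and not in the forelimb of the embryo, had 4.03 and 4.26 TPM (217 and 260 counts). Hoxa11 had 2.98 and 2.32 TPM (178 and 160 counts). Hoxd11, the partner of Hoxa11 in lower limb bones, was not detected, with 0.74 and 0.41 TPM (48 and 20 counts). The group held 7.57% ± 0.473 of Hox TPM.

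Paralogs 9 held 14.7% ± 0.306 of Hox TPM. Hoxa9, better known from blood stem cells and leukaemia, had 6.45 and 6.85 TPM (390 and 382 counts) and was the fourth gene in order of mean TPM. Hoxd9 had 4.00 and 3.79 TPM and Hoxc9, which sets thoracic motor neuron identity, had 3.25 and 3.31 TPM. The 3 detected members did not overlap one another. Hoxb9 stayed under the threshold, at 0.46 and 0.42 TPM.

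Beyond number 11 every gene was under 1 TPM in the gene tables, while Hoxa13 had 1.52 and 1.03 TPM in the separate quantification. Hoxa13, a factor of foot and digit formation, had 0.78 and 0.51 TPM (50 and 37 counts), and the deposited TPM lay below the interval (of unstated level) given in the same tables, 0.837 to 1.67 in replicate 1 and 0.547 to 1.18 in replicate 2. Hoxd13, whose mutations fuse and duplicate digits in people, had 1 count in each library. Hoxc13, a regulator of hair keratins, had 2 counts in each, and Hoxc12 had 1 count in each. Hoxb13 and Hoxd12 had 0 counts in both libraries. A count of 0 allows up to 3 counts, which is 0.0976 CPM in replicate 1 and 0.0834 CPM in replicate 2 (gene counts scaled to the library), for counting error only. Paralogs 12 and 13 together had 6 genes, and none was detected.

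**Figure D2:**
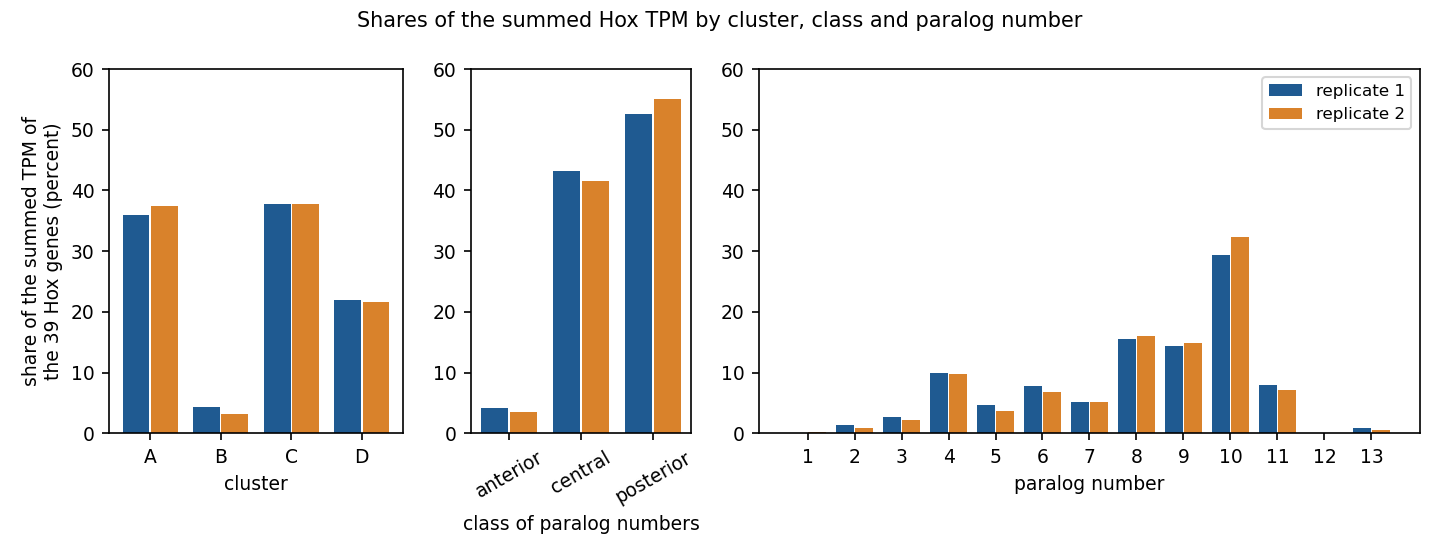
Share of the summed TPM of the 39 Hox genes, in percent, by cluster (left), class (middle) and paralog number (right), with 1 bar for replicate 1 (blue) and 1 for replicate 2 (orange). HoxA and HoxC genes hold over 35% each and HoxB genes under 5%, and paralog number 10 is the highest group in both libraries.

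In the central class, Hoxd8 stood above all others, at 12.3 and 13.9 TPM (814 and 1005 counts), and it was the highest gene of the HoxD cluster. It made up 84.7% ± 6.71 of paralogs 8. Hoxc8, which in mice shapes the thoracic skeleton and forelimb motor pools, had 2.56 and 1.25 TPM (139 and 80 counts). In TPM, replicate 1 was the higher library for Hoxc8 and replicate 2 for Hoxd8.

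Hoxc6, a gene of the forelimb motor column and the thorax, had 5.62 and 4.94 TPM (161 and 160 counts), and Hoxa6 had 1.61 and 1.34 TPM from 35 and 33 counts. Hoxa7 had 4.36 and 4.33 TPM (200 and 240 counts), 86.0% ± 0.303 of paralogs 7. Hoxa5, known for lung, neck and shoulder development, had 1.89 and 1.68 TPM. Hoxc5 had 2.14 and 1.60 TPM. None of these 5 genes differed between the libraries by as large a ratio as Hoxc8.

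Paralogs 4 carried 9.87% ± 0.035 of Hox TPM in both libraries although their members varied. Hoxa4 had 3.13 and 4.55 TPM (131 and 216 counts), higher in replicate 2. Hoxd4 had 2.95 and 1.60 TPM (146 and 86 counts), higher in replicate 1. Hoxc4 had 3.22 and 3.15 TPM (176 and 196 counts). The ranges of Hoxa4 and Hoxc4 overlapped, so no order can be given between them.

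The anterior class was low, with 4.14 TPM in replicate 1 and 3.35 TPM in replicate 2 summed over its 8 genes. Hoxa3, which is needed for the thymus and parathyroid, was its only detected gene, at 1.98 and 1.59 TPM (121 and 120 counts). Hoxa2, the selector gene of the second pharyngeal arch, had 0.79 and 0.58 TPM. Hoxd3 had 0.05 and 0.10 TPM from 4 counts and 1 count, with an effective length in the tables of 2622 bases in replicate 1 and 316 in replicate 2. Hoxd1 had 0 counts and 1 count. Hoxb1 had 0 counts in both libraries in the gene tables, while the separate quantification gave it 11 and 9 counts.

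By cluster, HoxC and HoxA genes held similar shares of the sum, HoxD genes less and HoxB genes the least. HoxC (chr15:102921103-103036852, 9 genes) held 37.8% ± 0.084 with 7 detected. HoxA (chr6:52155590-52260880, 11 genes) held 36.7% ± 0.986 with 8 detected, and its share was 30.2% over transcripts annotated as protein-coding alone. HoxD (chr2:74668310-74765142, 9 genes) held 21.8% ± 0.150 with 4 detected. HoxB (chr11:96194316-96368256, 10 genes) held 3.75% ± 0.752 with 0 detected.

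The HoxB genes were low but mostly not at 0. Hoxb7 was the highest, at 0.72 and 0.69 TPM from 24 and 26 counts. Hoxb3 followed with 0.67 and 0.49 TPM from 34 and 33 counts. Hoxb2, Hoxb4, Hoxb5, Hoxb6, Hoxb8 and Hoxb9 ranged from 0.38 to 0.55 TPM in replicate 1 and from 0.22 to 0.42 TPM in replicate 2. Neighbours here were hard to separate: the libraries overlapped in 4 of 9 neighbouring pairs along HoxB. They overlapped in 0 of 10 pairs along HoxA, 1 of 8 along HoxC and 0 of 8 along HoxD. Some HoxD pairs without overlap rest on very few counts. Hoxd13 had 1 count in each library against 0 for Hoxd12, and Hoxd3 had 4 and 1 against 0 and 1 for Hoxd1. Hoxd4 over Hoxd3 is also among them, although both values are uncertain because the genes share sequence. Lack of overlap with 2 libraries is not a test, so these counts set no firm order along HoxD.

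Along HoxA the level climbed from Hoxa2 to Hoxa4, dipped at Hoxa5 and Hoxa6, climbed again to Hoxa10 and was lower beyond it. Hoxa10 was 1.73-fold over Hoxa9 in replicate 1 and 1.78-fold in replicate 2, while Hoxa11 was 0.27 and 0.19 times Hoxa10. Along HoxC, Hoxc10 was 5.0-fold and 5.4-fold over Hoxc9, and Hoxc11 was 0.25 and 0.24 times Hoxc10. Along HoxD the peak came earlier: Hoxd9 was 0.33 and 0.27 times Hoxd8, Hoxd10 was 0.36 and 0.31 times Hoxd9, and Hoxd11 was 0.51 and 0.35 times Hoxd10. The highest gene of each cluster was the same in the separate quantification.

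Ranked over all clusters by mean TPM, the first 7 genes (Hoxc10, Hoxd8, Hoxa10, Hoxa9, Hoxc6, Hoxa7 and Hoxc11) each stood above the next in the gene tables without overlap of the libraries. This order changed in the separate quantification: Hoxd8 came before Hoxc10, Hoxc6 (8.24 and 8.70 TPM) and Hoxa7 (8.92 and 7.54 TPM) overlapped, and Hoxd9, at a mean of 7.17 TPM, came before Hoxc11, at 6.98 TPM. Some of these steps were small, such as Hoxa7 over Hoxc11 at 1.08-fold in replicate 1 and 1.02-fold in replicate 2. Over the whole order, 22 of 38 adjacent pairs overlapped. Just above the threshold stood Hoxa6 and Hoxd10, and just below it Hoxb7, Hoxa2 and Hoxa13. At 0.5 TPM these last 3 would count as detected, and in the separate quantification, whose TPM values were about 1.85 times higher for detected Hox genes and 1.75 times higher for detected coding genes, Hoxa2 and Hoxa13 passed 1 TPM.

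Counting in these clusters is made harder by overlapping genes, because the sources used here do not say how strand was used. Of the 39 Hox genes, 16 share exon bases with another gene, 9 of them with a gene on the same strand. Hoxd3 and Hoxd4 are the most exposed, with 57.8% and 41.1% of their 100-base stretches shared with each other or with the readthrough gene Gm28230, so their values are uncertain. For Hoxc10, 3.81% of these stretches were shared, all with Hoxc5. On the opposite strand, Hoxb3os covers 52.9% of the exon bases of Hoxb3 and Hoxa11os covers 34.98% of those of Hoxa11, with 25 and 14 counts for Hoxb3os and 76 and 97 counts for Hoxa11os. Those counts cannot be told apart from counts of Hoxb3 and Hoxa11 if strand was not used.

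Much of the RNA of some Hox genes was assigned to annotated transcripts that do not encode the protein. Of the 19 detected genes, 12 have several annotated transcripts, and in 3 of these the leading transcript was not protein-coding. For Hoxa10 this was Hoxa10-203, a processed transcript with 6.37 TPM in replicate 1 and 7.68 TPM in replicate 2. The protein-coding Hoxa10-201 had 2.26 and 1.45 TPM, and Hoxa10-202 had 1.87 and 2.82 TPM. Protein-coding transcripts thus made up 36.1% ± 1.34 of Hoxa10 TPM, and 48.2% ± 6.07 in the separate quantification, in which Hoxa10-203 again led in both libraries.

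Hoxa10-201 and Hoxa10-202 start 5915 bases apart, and RefSeq lists a promoter at the first base of each. The 250 bases before each start are shown to let these alternative starts be compared, 5′ to 3′ on the minus strand (RefSeq, GRCm38.p6), with the sequence TATAAA, read on either strand, in capitals.
Hoxa10 before the start of Hoxa10-202, chr6:52234940-52235189: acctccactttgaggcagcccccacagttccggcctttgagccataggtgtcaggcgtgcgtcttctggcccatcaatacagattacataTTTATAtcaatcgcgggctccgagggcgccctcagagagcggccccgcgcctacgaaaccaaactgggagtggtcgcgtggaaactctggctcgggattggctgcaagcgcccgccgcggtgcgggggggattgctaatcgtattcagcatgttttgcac
Hoxa10 before the start of Hoxa10-201, chr6:52240855-52241104: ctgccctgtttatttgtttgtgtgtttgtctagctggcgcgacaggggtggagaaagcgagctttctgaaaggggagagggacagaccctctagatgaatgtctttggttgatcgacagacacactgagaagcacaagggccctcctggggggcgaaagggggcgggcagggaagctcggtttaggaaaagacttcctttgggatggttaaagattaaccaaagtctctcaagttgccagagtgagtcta
The window before Hoxa10-202 holds 20 CpG dinucleotides and 1 match to TATAAA, and the window before Hoxa10-201 holds 7 CpG and no match. Over all 32851 RefSeq promoters the median was 6 CpG in 250 bases and 12.4% held TATAAA. Promoters were listed for 22 of the 39 Hox genes. Their 24 windows had a median of 12.5 CpG, and 4 (16.7%) held TATAAA. TGATNNAT, the composite motif that Hox and Pbx proteins are known to bind, was in 4 (16.7%), against 7.68% of all promoters. All 4 were among the 11 windows of Hox genes not detected, and 0 of the 13 windows of detected Hox genes held it. A match is only a description of the letters, and Hoxa10-203, the leading transcript, begins at neither of these starts.

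Hoxd8 showed how far an assignment to transcripts can depend on the quantification. In the tables behind the gene values, Hoxd8-201 had 10.1 and 10.6 TPM and the short Hoxd8-203, of 557 bases, had 0.10 and 0.54 TPM. In the separate quantification Hoxd8-203 had 16.1 and 9.74 TPM, beside 15.5 and 16.9 TPM for Hoxd8-201. All 3 Hoxd8 transcripts are annotated as protein-coding, so the share of coding RNA was 100% in both. RefSeq places the Hoxd8 start at the first base of Hoxd8-203, and the 250 bases before it, on the plus strand, are given because the quantifications differed in the share of this transcript.
Hoxd8 before the start of Hoxd8-203, chr2:74704365-74704614: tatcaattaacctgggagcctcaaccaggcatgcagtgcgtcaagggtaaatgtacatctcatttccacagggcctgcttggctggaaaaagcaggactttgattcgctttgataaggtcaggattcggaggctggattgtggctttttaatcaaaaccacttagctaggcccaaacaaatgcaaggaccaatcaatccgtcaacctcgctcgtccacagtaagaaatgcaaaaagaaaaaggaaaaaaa
This window holds 6 CpG and no TATAAA.

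In the tables behind the gene values, Hoxc6 and Hoxa9 were led by protein-coding transcripts that held under 50% of each gene's TPM on average. Hoxc6-201 had 47.2% ± 1.13 of Hoxc6 TPM, beside 2 processed transcripts with 25.6% ± 2.70 and 27.2% ± 1.58. In the separate quantification Hoxc6-201 had 56.7% ± 15.9. Hoxa9-201 had 42.2% ± 10.9 of Hoxa9 TPM, at 3.22 and 2.37 TPM. Hoxa9-202 is also protein-coding, so coding transcripts made up 60.5% ± 12.5 of Hoxa9 TPM, and 67.0% ± 7.97 in the separate quantification. For Hoxc8, the protein-coding Hoxc8-201 led in replicate 1 with 51.0% and the intron-retaining Hoxc8-202 led in replicate 2 with 69.6%. For Hoxd4, Hoxd4-201 led in replicate 1 with 40.3% and the processed transcript Hoxd4-203 led in replicate 2 with 55.6%. Among the 12 genes, 9 had the same leading transcript in both libraries and 5 had it in both libraries of both quantifications.

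**Figure D3:**
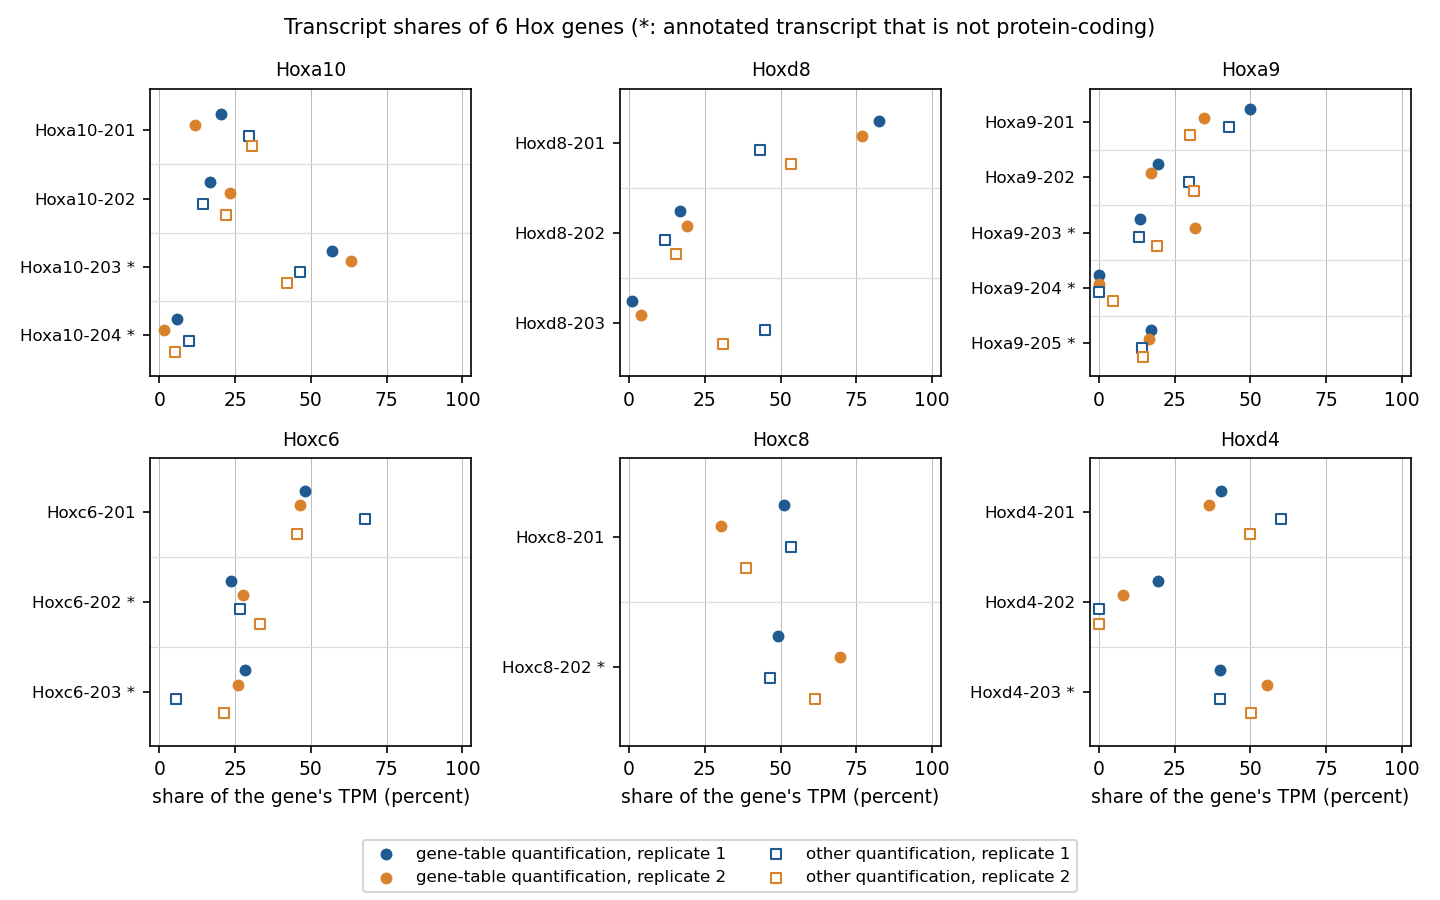
Share of each gene's TPM, in percent, taken by each annotated transcript of 6 Hox genes, in replicate 1 (blue) and replicate 2 (orange). Filled circles are the quantification behind the gene values, open squares the separate quantification, and a star marks transcripts not annotated as protein-coding. Hoxa10-203 leads in all 4 estimates, and Hoxd8-203 moves from under 5% to over 30% between quantifications.

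To see which Hox levels differed between the samples, the libraries were compared as the log2 ratio of replicate 1 over replicate 2 of counts scaled by trimmed mean of M values. With 1 library on each side no test of the difference is possible, and the intervals given are exact 95% intervals of counting error. A mean of 10 or more counts was reached by 31 Hox genes. Of these, 1 was over 2-fold apart, against 3.75% of all 17598 genes at that depth, and it was higher in replicate 1, as were 2.73% of all genes. This was Hoxd11, with 48 counts in replicate 1 and 20 in replicate 2, a log2 ratio of 1.35 (0.66 to 2.27). Hoxc8 followed, with a log2 ratio of 0.96 (0.57 to 1.39), and then Hoxd4, at 0.92 (0.55 to 1.34). Hoxa4 was the lowest, at -0.54 (-0.87 to -0.22), and Hoxa10 had -0.22 (-0.38 to -0.05). The interval left equality out for 8 Hox genes, 5 of them higher in replicate 1, against 33.0% of all genes. Its width depends on the number of counts, and the other genes were not matched to the Hox genes in counts. No conclusion is drawn from this comparison.

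More Hox genes leaned towards replicate 1 than towards replicate 2. The log2 ratio was above 0 for 23 of the 31, against 50.4% of all genes, and the median was 0.19 for Hox genes and 0.0015 for all genes. Among the 16 Hox genes with a mean of 100 or more counts the split was 9 above and 7 below 0, with a median of 0.07. All 8 HoxB genes at this depth were above 0, from 0.02 for Hoxb8 to 0.91 for Hoxb6, but none of their intervals left equality out, and Hoxb3 and Hoxb9 turned to -0.07 and -0.02 in the separate quantification. Scaling by spike-ins moved the median of all genes to 0.14 and that of the Hox genes to 0.32, with 27 of 31 Hox genes above 0 against 75.8% of all genes. That scaling raises all genes alike, and with it Hoxa7, Hoxc9, Hoxc11 and Hoxd8 changed from below to above 0. Hoxc8 and Hoxd4 passed 2-fold with that scaling, at 1.09 and 1.06, as did Hoxb6 at 1.04.

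The libraries also differed in markers of other tissues and of blood. The 7 tendon markers, all detected, summed to 326 TPM in replicate 1 and 185 TPM in replicate 2. The 8 markers of cartilage and bone summed to 51.8 and 12.6 TPM, with 3 detected and Ibsp and Col10a1 at 0 in replicate 2. The 5 red cell markers, 4 of them detected, summed to 1233 and 230 TPM. The 5 liver markers, 4 of them detected, summed to 9.93 and 101 TPM. Whether these shifts have a part in the Hox ratios was not tested.

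**Figure D4:**
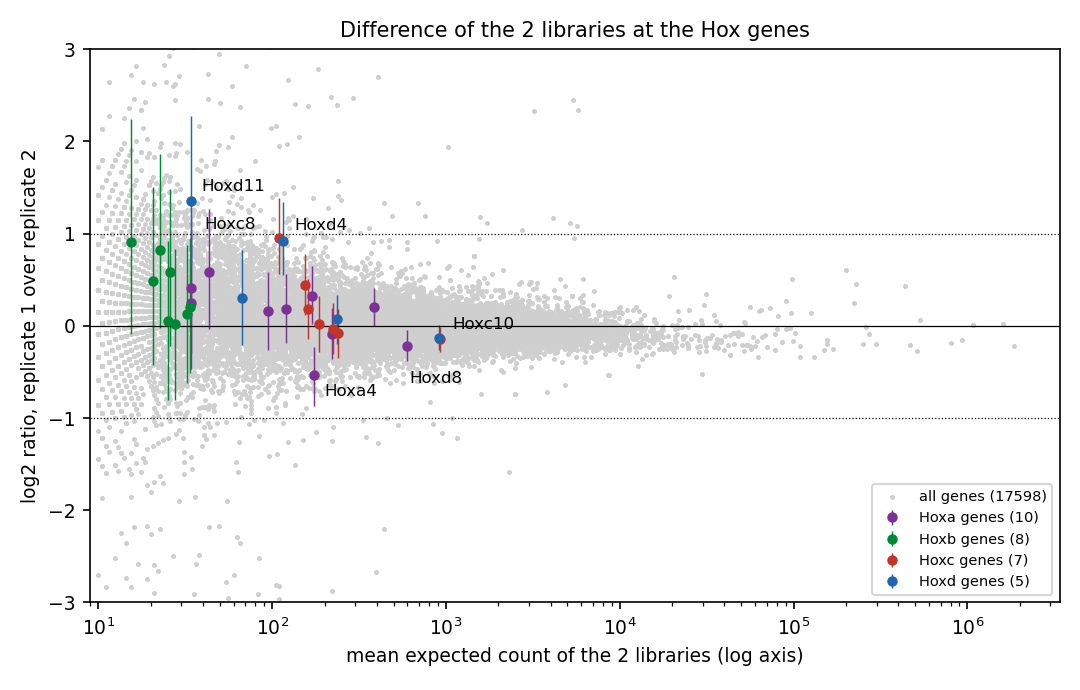
Log2 ratio of replicate 1 over replicate 2 against the mean expected count (log axis) for 17598 genes (grey) and Hox genes coloured by cluster, with exact 95% counting intervals. Dotted lines mark 2-fold, and grey points beyond 3 on either side are not drawn. Hoxd11 is the only Hox gene beyond 2-fold, Hoxa4 is the lowest, and the intervals widen towards low counts.

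As a check of the tissue, the 6 skeletal muscle markers were all detected and summed to 23845 and 28296 TPM, with Acta1, skeletal muscle actin, at 11663 and 13964 TPM. The 6 connective tissue markers summed to 5466 and 4675 TPM, and the 5 satellite cell markers, which mark muscle stem cells, to 96.6 and 104 TPM. Markers of endothelium summed to 226 and 210 TPM and those of Schwann cells to 196 and 280 TPM, with 5 of 5 detected in each list. The 4 skin markers summed to 6.99 and 8.43 TPM with 2 detected. Spinal cord motor neurons are known for strong Hox expression, and their axons but not their cell bodies lie in muscle. Of 6 neuron markers 0 were detected, their sum was 1.07 and 1.00 TPM, and Chat and Slc18a3, which define cholinergic neurons, were at 0 in both libraries. Which cells of the muscle the Hox RNA came from was not tested.

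Of 16 genes known to set limb identity and to pattern limb muscle, 10 were detected, and the median of the 16 was 2.31 TPM, against 2.165 TPM for all coding genes and 0.705 TPM for the 39 Hox genes. The detected share of 62.5% was near the 55.0% of all coding genes. Pitx1, the hindlimb selector, had 2.34 TPM in replicate 1 and 2.24 TPM in replicate 2, from 154 and 160 counts. Tbx4, the T-box gene of the hindlimb, had 2.26 and 2.41 TPM (190 and 228 counts). Tbx5, the forelimb counterpart of Tbx4, had 0.02 and 0.07 TPM from 2 and 8 counts. Both Tbx4 values lay above both Tbx5 values. The 4 highest of the list were Prrx1, a gene of limb mesenchyme, at 34.5 and 35.8 TPM, Meox2, a limb muscle homeobox gene, at 20.6 and 23.2 TPM, Lbx1, which guides migrating muscle precursors, at 7.73 and 10.02 TPM, and Meox1 at 6.80 and 6.83 TPM.

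The list's members under 1 TPM in both libraries were Tbx5 and 5 others. Hand2 had 0.97 and 0.56 TPM and Lmx1b, which specifies the dorsal side of the limb, had 0.62 and 0.38 TPM. Isl1, an initiator of the hindlimb bud, had 0.45 and 0.48 TPM. Msx2 had 0.05 and 0.12 TPM, and Shh, the signal of the posterior limb bud, had 0 and 2 counts.

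The cofactors that bind DNA together with Hox proteins were detected in 8 of 9 cases (88.9%), against 55.0% of all coding genes. Pbx2 had 18.02 and 20.65 TPM, Pknox1 had 9.64 and 11.2 TPM and Pknox2 had 10.7 and 9.48 TPM. The Meis genes, which also mark the proximal limb, ranged from 2.49 TPM for Meis2 to 4.81 TPM for Meis1 in replicate 1 and from 2.59 to 5.13 TPM for the same genes in replicate 2. Pbx4 was the exception, at 0.34 and 0.73 TPM. The cofactors summed to 76.1 and 75.1 TPM, against 98.1 and 96.7 TPM for the Hox genes.

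**Figure D5:**
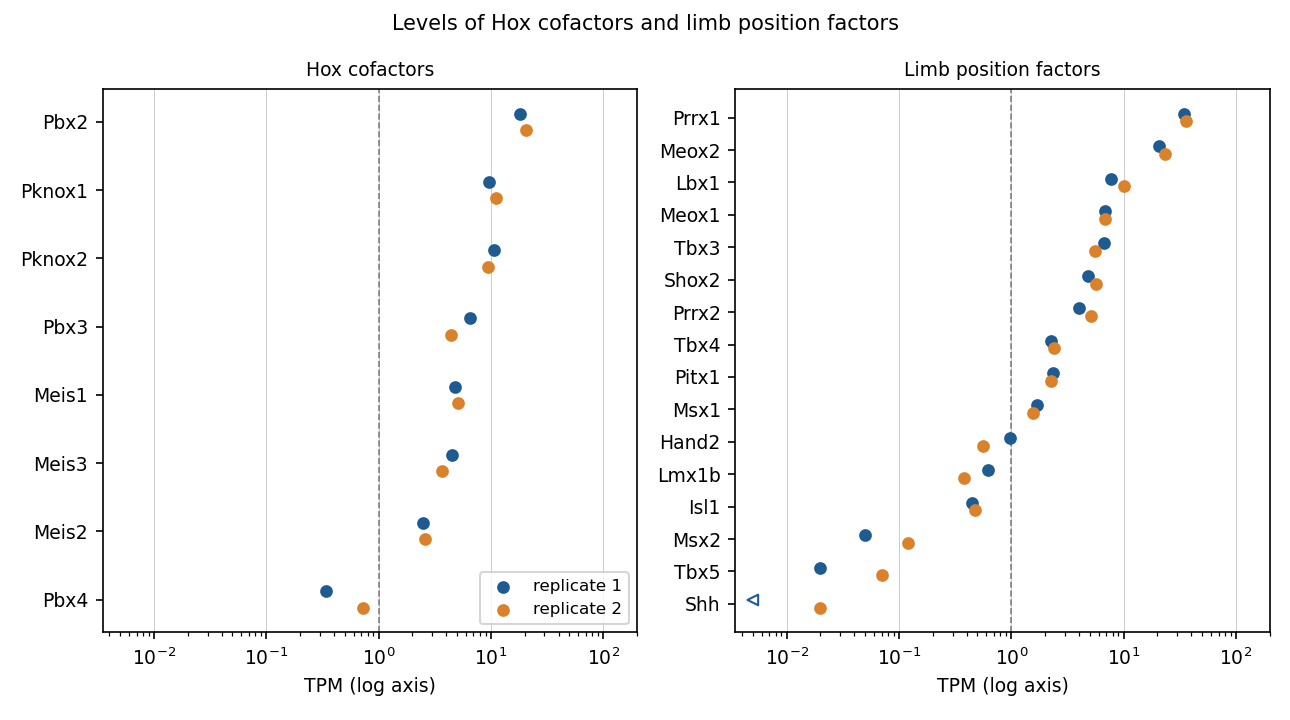
TPM (log axis) of 8 Hox cofactors (left) and limb position factors (right) in replicate 1 (blue, upper) and replicate 2 (orange, lower), ordered by mean; the dashed line is 1 TPM and an open triangle is a gene listed at 0. Tbx4 and Pitx1 lie over 2 TPM and Tbx5 under 0.1 TPM in both libraries.

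Among 18 genes of the Polycomb and Trithorax systems and CTCF, which keep Hox clusters closed or open, 17 were detected. This was a share of 94.4%, against 55.0% of all coding genes. Kmt2d had 22.4 and 26.5 TPM, Ctcf had 21.6 and 22.5 TPM, Kdm6a had 19.5 and 19.4 TPM and Ash2l had 19.2 and 18.5 TPM. Cbx7 was the member under 1 TPM, at 0.75 and 0.82 TPM. Of 12 genes tied to the switching on of Hox clusters in embryos, antagonists and retinoic acid breakdown genes among them, 6 were detected. That share of 50.0% was near the 55.0% of all coding genes. The 4 highest were the retinoic acid receptors Rara, at 15.4 and 17.7 TPM, Rarg, at 8.28 and 8.21 TPM, and Rarb, at 5.16 and 4.73 TPM, and the retinoic acid synthase gene Aldh1a2, at 9.50 and 10.8 TPM. The caudal genes Cdx2 and Cdx4 had 0 counts and Cdx1 had 0 and 1 counts. Crabp2, at 0.56 and 0.49 TPM, and Cyp26a1, at 0.11 and 0.07 TPM, were also under 1 TPM in both libraries.

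The clusters contain other annotated genes, mostly noncoding. Of 46 such genes lying wholly within the clusters, 3 were detected, all antisense or noncoding: Hotairm1 in HoxA had 2.45 and 1.76 TPM from 17 and 14 counts, Hoxa11os in HoxA had 2.76 and 2.74 TPM, and Hoxd3os1 in HoxD had 2.71 and 2.89 TPM from 38 and 44 counts. Of the 46, 43 are not protein-coding, and the detected share of 6.52% was near the 3.82% of all genes with no protein-coding transcript. Of 10 noncoding RNAs of the clusters listed by name, the same 3 were detected. Hotair, the long noncoding RNA of HoxC, had 0.64 and 0.71 TPM (34 and 43 counts). Hoxaas3 was the fourth of the noncoding list by mean, at 1.35 and 0.97 TPM. Hoxaas2, Hoxb3os and Haglr stayed at 0.43 TPM or less in both libraries. Hottip, at the Hoxa13 end of its cluster, had 0 counts in both, like Hoxb5os, while 24 of the 46 genes had counts in at least 1 library and 22 had 0 counts in both. The 6 named microRNA genes of the clusters had 0 counts in all but Mir10a, with 1 count in replicate 2, and their short hairpins can hardly be counted by tables whose effective length is the length minus 99 bases.

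Beside the clusters lie genes of other families. Of 13 neighbouring genes, 8 were detected, and this share of 61.5% was near the 55.0% of all coding genes. They were led by Cbx5 beside HoxC, at 37.5 and 38.7 TPM, and Atf7, at 29.6 and 32.9 TPM. Hibadh beside HoxA followed, at 27.7 and 27.6 TPM, and then Calcoco1, at 22.4 and 23.5 TPM. Cbx5, Atf7, Hibadh and Calcoco1 were each higher than Hoxc10 in both libraries. The even-skipped homologs Evx1 and Evx2, which sit at the posterior ends of HoxA and HoxD, had 0 counts and 3 counts in each library. Skap1, Calcoco2 and Ttll6, beside HoxB, had 5 or fewer counts in each library.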

How the data were processed

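Total RNA-seq of gastrocnemius gave 2 libraries, of 30961087 (replicate 1) and 36246031 (replicate 2) expected counts. The authors deposited, for each library, gene and transcript tables of expected counts, some of them fractional, and TPM values on mm10 with GENCODE M21, per the file headers and accompanying notes. They also deposited bounds of a TPM interval, used here as a score of unstated level, and a separate transcript quantification with estimated counts and TPM, summed here per gene. Programs, versions and use of strand: not given in the sources used here. Alleles of the 2 parents were not separated, and the reference represents C57BL/6J.

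All 39 symbols matched the annotation and the deposited tables. Shares are of the summed TPM of the 39 genes, per library. Errors are SDs over 2 libraries; an exact permutation test of 2 against 2 values cannot go below 0.333, so no p-value is given. Counts were rounded for ratios, scaled with edgeR 4.0.16 (trimmed mean of M values, prior count 2, mean of at least 10 counts; R 4.3.3), and tested on simulated data; DESeq2 1.42.0 gave alternative size factors. Exact Clopper-Pearson 95% intervals cover counting error only, since reads are not independent molecules. Python 3.11.15, pandas 2.3.3, numpy 2.4.6, scipy 1.17.1 and matplotlib 3.10.9 were used for the rest.

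The members, 7 lists of related genes, 11 marker lists, thresholds and alternatives were chosen with earlier results of these data known. The rule named all Hox genes and, of each related list, the 4 of highest mean TPM and those under 1 TPM in both libraries; further genes were named after their values were seen. A Hox gene and a cofactor that the rule names are not reported here. Of the listed symbols, Hoxa10os, Hoxc13os, Hoxb13os and Prac1 did not match. Sequences are from GENCODE M21 transcripts and the RefSeq promoter table.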

Additional observations from a re-analysis of the deposited data

How the results depend on the processing

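The detected count of 19 became 31 at 0.1 TPM and 30 at 10 counts in both libraries; it stayed within 19 to 22 under the other settings, either library alone included. With expected counts in place of TPM, the shares were 34.5% for HoxA, 36.7% for HoxC and 25.1% for HoxD. In the separate quantification they were 33.6% for HoxC, 25.8% for HoxD, 45.3% for the central and 51.1% for the posterior class. Over protein-coding transcripts they were 30.2% for HoxA, 40.9% for HoxC, 24.7% for HoxD, 44.6% central and 51.5% posterior. Without the highest member of each cluster they were 43.9% for HoxA, 5.34% for HoxB, 35.9% for HoxC, 14.8% for HoxD, 6.81% anterior, 50.0% central and 43.2% posterior. With either library alone the posterior share was 52.6% to 55.0%. The order of HoxA and HoxC changed between settings, and HoxB was the lowest in all of them.

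Over 2-fold apart were 2 Hox genes with library size scaling (3.95% of all genes), 4 with spike-ins (4.56%), 2 with a prior count of 0.5 (4.39%), 0 of 16 at a mean of 100 counts (0.710%) and 2 of 36 with no minimum (9.29%), against 1 of 31 (3.75%). The median Hox log2 ratio was above 0 in all 8 settings, from 0.07 to 0.32. No paired analysis was possible because the samples form 1 group. Depth limits the 9 Hox genes under 10 counts in either library, for which counting error is large; no cause of any of these changes was tested. Of 52 alternative values behind the main comparisons, 26 kept within the limits set and 26 moved, and of 156 for single genes, transcripts, paralog numbers and lists, 61 kept and 95 moved. Shares from a single library are not counted here, since each of 2 values always lies within 1 SD of their mean. Levels of single genes were compared as TPM without rescaling between quantifications. The separate quantification ran about 1.85 times higher for detected Hox genes and 1.75 times higher for detected coding genes. Moves of single genes under it thus include this difference of scale.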

Other observations

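Of the 6 Hox genes whose deposited TPM lay outside the deposited interval in either library, 4 had 0 counts in at least 1 library, and Hoxa13 and Hoxd3 were the others. Hoxa13 had 0.78 and 0.51 TPM in the gene tables and 1.52 and 1.03 TPM in the separate quantification. Across the 39 Hox genes, mean TPM in the separate quantification followed that of the gene tables with a Spearman rho of 0.990, a description over genes that share libraries and lengths.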
